A study of Mus musculus with 7 samples.

Results

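Head-to-head bidirectional promoters are stretches of DNA from which a pair of protein-coding genes is transcribed in opposite directions. They were chosen here from the mm10 annotation alone, without any accessibility value. A pair was taken when the transcription start sites (TSSs) of 2 protein-coding genes on chromosomes 1 to 19 lay on opposite strands, pointed away from each other and were 0 to 1000 bp apart. Of 20232 protein-coding genes with a known strand, 1447 (7.15%) belonged to 728 such pairs. The regions of open chromatin that covered both TSSs of a pair numbered 667 of 93201 merged autosomal regions, and 9 of them covered 2 pairs that share a gene. For comparison, 17889 genes had a single TSS, meaning that no other protein-coding TSS lay within 1000 bp, and 9859 regions covered such a start.

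The libraries were made by ATAC-seq, in which the Tn5 transposase cuts and tags DNA where chromatin is open, so that pileups of cut sites mark accessible DNA. Each library held 5000 muscle stem cells (MuSCs) sorted fresh from hindlimb muscle. MuSCs express PAX7 and repair adult skeletal muscle. Mice of the Nedd4L-cKO genotype gave 4 libraries and WT mice 3, each counted by the study as 1 mouse. Per the legend of its ATAC-seq figure these were males of 5 to 6 weeks, and its methods give a C57BL/6 background. In the knockout line (Nedd4L fl/fl Pax7 cre/+) exon 15 of the ubiquitin ligase gene Nedd4L is removed in cells that express the Pax7-driven Cre, and the gene can still be transcribed. The genotype of the WT controls at the floxed and Cre alleles was not given in the sources used here, and peak lists do not show whether the exon was removed, so the genotype labels were taken as given. No agent was applied to either group.

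The libraries kept 14.4 M to 20.1 M tags (M, 1000000) and listed 67836 to 77479 autosomal peaks. Nedd4L-cKO replicate 4 had the most tags and WT replicate 3, the only library of the second lane, the fewest. Of 7 MuSC markers, 5 (Pax7, Vcam1, Cdh15, Sdc4 and Calcr) had a peak at the TSS in all 7 libraries, Myf5 in 3 libraries and Itga7 in none. None of 4 immune markers had one in any library. Among 4 endothelial markers Tek had one in 7 libraries and Kdr in 5, and among 4 fibro-adipogenic markers Dpt had one in 7 and Dpp4 in 3, while Pecam1 and Cdh5, and Pdgfra and Ly6a, the other markers of those cells, had none. The part of other cell types in the values below was not tested.

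In a bidirectional promoter the transcription machinery assembles in both orientations within one nucleosome-depleted stretch. Such promoters are known to be rich in G, C and CpG, to lack a TATA box as a rule, and to serve genes that nearly every cell uses, among them genes of DNA repair, of mitochondria and of the replication-dependent histones. An open promoter is not a measure of transcription, and an ATAC-seq peak over both starts does not tell which of them is used.

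The stretches between the starts show what this class of promoter looks like. The distance between the starts had an interquartile range of 48 to 238 bp, and 363 pairs lay within 100 bp and 597 (82.01%) within 300 bp. Shown here, with RefSeq letters on GRCm38, which is mm10 under its other name, is all the DNA between the starts of 5 pairs from textbook lists and of 1 closely spaced pair with no peak over these starts. Each is written 5′ to 3′ on the plus strand and named with the minus-strand gene first, so that the gene named first runs to the left. Capitals mark the cores of known promoter elements that were searched for on both strands, as listed after the sequences.
Sdhd/Timm8b, chr9:50603850-50603900: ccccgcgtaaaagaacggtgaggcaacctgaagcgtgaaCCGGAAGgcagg
Clcn2/Polr2h, chr16:20717747-20717825: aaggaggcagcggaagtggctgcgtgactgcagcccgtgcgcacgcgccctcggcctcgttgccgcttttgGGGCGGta
Ankrd49/Mre11a, chr9:14784574-14784653: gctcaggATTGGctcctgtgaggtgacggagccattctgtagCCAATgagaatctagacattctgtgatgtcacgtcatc
Brca1/Nbr1, chr11:101551956-101552106: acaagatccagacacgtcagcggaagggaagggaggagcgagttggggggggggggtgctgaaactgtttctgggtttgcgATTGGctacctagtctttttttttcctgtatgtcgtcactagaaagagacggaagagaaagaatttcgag
Psmb9/Tap1, chr17:34187331-34187555: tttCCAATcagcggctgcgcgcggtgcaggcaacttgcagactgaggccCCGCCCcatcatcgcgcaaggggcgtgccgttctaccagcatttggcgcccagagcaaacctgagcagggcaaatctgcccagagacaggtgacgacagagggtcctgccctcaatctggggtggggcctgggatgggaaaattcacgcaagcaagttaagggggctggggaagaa
Best1/Rab3il1, chr19:10001634-10001668: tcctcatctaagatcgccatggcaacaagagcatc

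The capitals were an ETS core (CCGGAAG) between Sdhd, which encodes a subunit of succinate dehydrogenase, and Timm8b, a mitochondrial import chaperone, and a GC box (GGGCGG) between the chloride channel gene Clcn2 and Polr2h, which encodes a subunit of the RNA polymerases. Between Ankrd49 and the double-strand break repair gene Mre11a there were 2 CCAAT boxes (CCAAT), and between the repair gene Brca1 and the autophagy receptor gene Nbr1 there was 1. A CCAAT box and a GC box stood between Psmb9, an immunoproteasome subunit, and Tap1, a transporter of antigenic peptides. No core searched for was found in the 35 bp between Best1 and Rab3il1. The lack of a core was not particular to pairs without a peak. Between Coa5 and Unc50, which had one peak over both starts in all 7 libraries, there was no core either. Between Gm2436 and Srp54b, which had no region, there were 2 GC boxes and a CCAAT box. In all, 237 pairs had 20 to 248 bp between their starts and a listed sequence that reached across them, and 227 of these had one peak over both starts in all 7 libraries. Of these stretches 167 (70.5%) held at least 1 core, 104 (43.9%) a GC box, 34 (14.3%) an ETS core and 4 (1.69%) a TATA box (TATAAA), and their median GC content was 64.4%.

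Over windows of equal length, from 250 bp before to 50 bp after a listed start, promoters of paired genes differed in composition from those of genes with a single TSS. A window was listed for 1231 of the 1447 paired genes (85.1%) and 14472 of the 17889 single ones (80.9%). The median GC content was 61.7% for paired and 55.7% for single genes, and 85.3% against 45.4% of windows were CpG-rich, meaning that CpG was seen at more than 0.6 times the rate its C and G content would give. An ETS core stood in 27.8% of paired, 10.4% of single and 12.3% of all promoters, and a YY1 core (ATGGCGG) in 12.8%, 4.75% and 5.51%. A GC box stood in 65.5%, 45.1% and 47.3%, a CCAAT box in 45.3%, 38.8% and 39.1%, a cAMP response element (CRE, TGACGTC) in 6.58%, 3.72% and 4.07%, and an NRF1 core (GCATGCG) in 7.55%, 4.26% and 4.59%. A TATA box was less frequent in paired promoters, at 5.69% against 14.6% of single and 13.5% of all. Single genes with a peak at the TSS in all 7 libraries were closer to the paired ones in most of these features. Of their windows 6.90% held a TATA box, 17.05% an ETS core, 7.62% a YY1 core, 5.89% a CRE, 7.08% an NRF1 core and 39.3% a CCAAT box, and 75.7% were CpG-rich. Their median GC content was 61.7%, the same as that of paired genes, and a GC box stood in 69.7%, a higher share than in paired promoters. No overlap between these cores was counted out, the windows of a pair overlap each other, and a match is a run of letters and not a bound site.

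Nearly all head-to-head promoters were open in these cells. In every library 662 to 672 of the 728 pairs (90.9% to 92.3%) had a single broad peak over both TSSs, 17 to 27 had a peak over one TSS, 38 to 41 had a peak over neither, and in no library did separate peaks cover the 2 starts of a pair. At most pairs the starts lie too close for the peak calling to separate them, so the lack of separate peaks is partly fixed by the method. By group, Nedd4L-cKO libraries had 91.7% ± 0.494 of pairs under one peak (SD, n = 4) and the WT ones 91.8% ± 0.727 (SD, n = 3). One peak spanned the same pair in all 7 libraries at 657 pairs (90.2%), in some libraries at 19 and in none at 52. The regions behave alike: 666 of the 667 regions over pairs (99.9%) were called in all 7 libraries, beside 9323 of 9859 regions over single starts (94.6%) and 56% of all autosomal regions. A region over a pair had to reach both starts, which leaves out narrow regions, so part of its higher share may follow from the rule. The exception among the 667 was the region over Deaf1, a transcription factor gene, and Eps8l2, whose starts lie 42 bp apart. It was called in every library but Nedd4L-cKO replicate 2, and one peak spanned both starts in Nedd4L-cKO replicates 3 and 4 and WT replicate 3, at pileup percentiles of 32.5, 24.2 and 1.47.

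A paired TSS was covered by a peak more often than a single one. Of the 1447 paired starts, 92.7% to 93.5% lay under a peak, against 50.7% to 52.8% of the 17889 single starts. The gap was 41.6 percentage points ± 0.474 (SD over 7 libraries) and had the same sign in 7 of 7 libraries (p = 0.0156, exact permutation test over sign flips of the libraries, two-sided, the smallest p that 7 libraries allow, and 0.0430 adjusted by Benjamini-Hochberg over 11 tests). The libraries are the replicates in this test, so the p says that the gap was repeated from library to library over the same genes. The gap was not the same in CpG-rich and CpG-poor promoters. Over the starts of the promoter table it was 38.8 points, and among its CpG-rich starts alone 5.37 points, positive in 7 of 7 libraries. Counted over starts, 1122 of 1145 CpG-rich paired starts (98.0%) and 6102 of 6774 CpG-rich single starts (90.1%) were under a peak in all 7 libraries. Among CpG-poor starts these were 95 of 137 paired (69.3%) and 1833 of 8038 single ones (22.8%), so that paired and single starts were farther apart there than among CpG-rich ones. Starts were classed one by one, however. Of the 1145 CpG-rich paired starts, 1094 belonged to pairs with both starts CpG-rich, and the others had a CpG-poor partner. A CpG-poor paired start may thus lie under the peak of a CpG-rich partner, and the part of such partners was not tested.

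**Figure D1:**
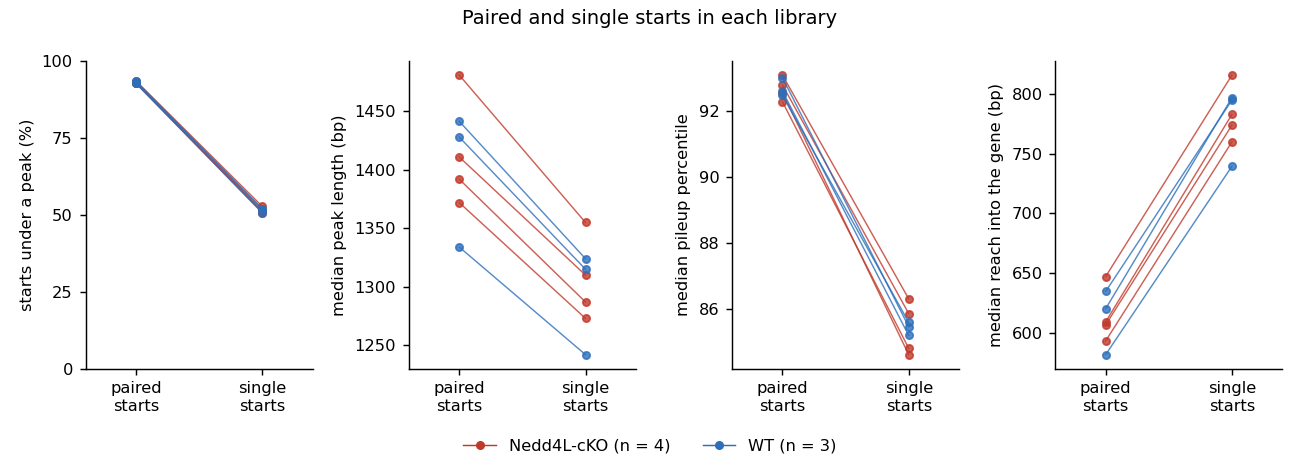
Each line joins the value of paired starts to that of single starts in one library, for 4 Nedd4L-cKO (red) and 3 WT (blue) libraries. The panels give the percent of starts under a peak, the median length in bp and median pileup percentile of the peaks, and the median reach in bp from the start into the gene (only the first axis begins at 0). All 7 lines run the same way in each panel, and red and blue overlap throughout.

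Peaks over pairs ranked higher than peaks over single starts. MACS2 gives each peak a pileup, its mean coverage, which is not scaled to depth, so each pileup was turned into a percentile among all autosomal peaks of its own library (0 lowest, 100 highest). The median percentile of peaks over paired starts was 92.3 to 93.1 in the 7 libraries, and that over single starts 84.6 to 86.3. The gap was 7.27 percentile points ± 0.426 (SD, n = 7), positive in 7 of 7 libraries (p = 0.0156, exact permutation test over sign flips, adjusted 0.0430). Among starts called in all 7 libraries, the median percentile was 93.4 for CpG-poor paired and 79.1 for CpG-poor single starts, and 93.1 against 88.7 for CpG-rich ones. Some CpG-poor paired starts have a CpG-rich partner, so their percentile may be that of a peak shared with it. The gap was 4.79 points among CpG-rich starts alone, and 11.5 points when only peaks with a -log10 q of at least 5 were kept. Over promoters called in every library, 64.4% of the 657 pairs and 38.2% of the 8506 single starts had a median percentile over 90. The lower ends differed as well: 5% of pairs were under 76.5, whereas 5% of single starts were under 48.1.

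**Figure D2:**
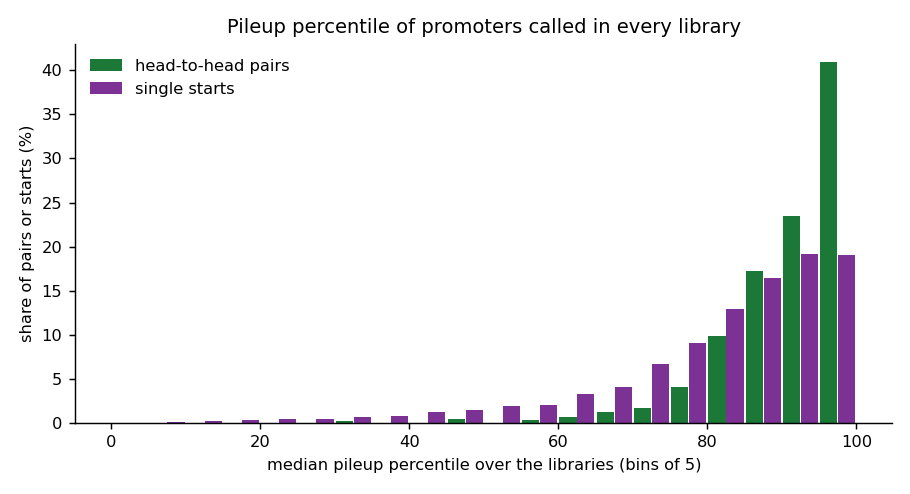
Bars give the share of 657 head-to-head pairs (green) and 8506 single starts (purple) by the median, over 7 libraries, of the pileup percentile of the peak at the promoter, in bins of 5. The top bin, 95 to 100, holds 40.9% of pairs and 19.05% of single starts.

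The peaks over pairs were longer in total but reached less far into each gene. The median length of peaks over at least 1 paired TSS was 1334 to 1481 bp, and of peaks over a single TSS 1242 to 1355 bp, a gap of 108 bp ± 11.8 (SD, n = 7) that was positive in 7 of 7 libraries (p = 0.0156, exact permutation test over sign flips, adjusted 0.0430). It was 74.9 bp for pairs at most 300 bp apart. Measured from the TSS to the edge of the peak in the direction of transcription, which leaves out the stretch between the starts, the median reach was 582 to 647 bp for paired starts and 740 to 816 bp for single starts. That gap was -168 bp ± 6.76 (SD, n = 7), negative in 7 of 7 libraries, with the same p-values. With the starts of the promoter table in place of the outer ends of the genes it was -137 bp. For each gene the listed start nearest its outer end was used there, so these starts still lean toward the outer ends. The part of the choice of TSS in the reach gap was not tested.

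The peaks were also placed differently. Over a single start the peak lay more within the gene than before it: it extended 449 to 479 bp upstream and 740 to 816 bp downstream, and its centre was 141 to 162 bp downstream of the start in the median. The size of this shift rests on the outer end of the gene as TSS: from the starts of the promoter table the reach was 504 to 538 bp upstream and 695 to 763 bp downstream. Over a pair the peak reached 577 to 639 bp past the minus-strand start and 581 to 648 bp past the plus-strand start, but as either gene of a pair may be on either strand, these medians do not show whether individual peaks were skewed to one gene. Taken without direction, the centre of a peak over a pair was 110 to 122 bp from the midpoint between the starts in the median. It was between the starts themselves at 29.4% to 32.8% of the pairs under one peak. Peaks over single starts were centred 186 to 206 bp from the start in the median. The centre was within 200 bp of the midpoint at 70.8% to 72.9% of the pairs under one peak. It was within 200 bp of the start at 49.1% to 53.2% of the single starts under a peak. A peak over a pair had to cover both starts, and a peak over a single start only that start, so part of this difference may follow from the rule. In the gapped lists, which mark the narrow, steep peaks inside each broad one, 98.1% to 99.3% of the broad peaks over pairs had a narrow block across both starts, and 93.2% to 94.8% had exactly 1 block. The 2 starts of a pair thus lay in one narrow block in nearly all cases in which one broad peak covered them.

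**Figure D3:**
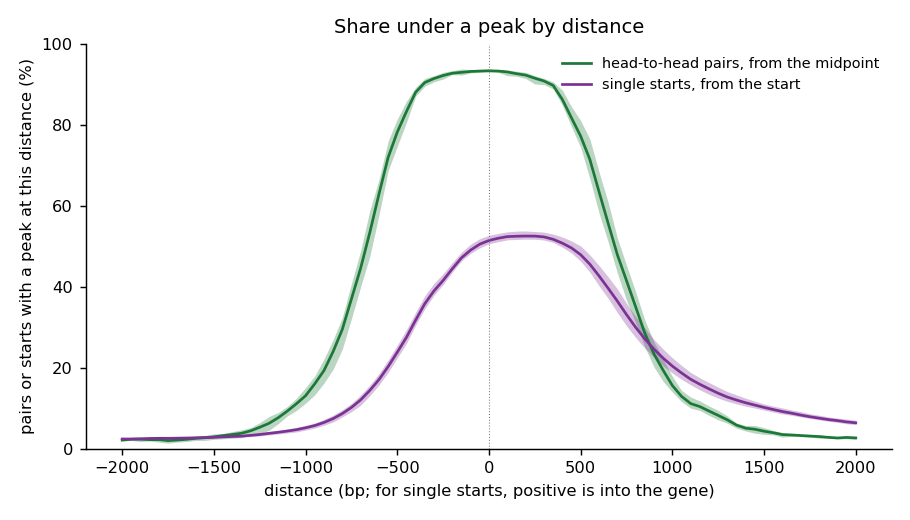
The share of 728 head-to-head pairs (green, by distance from the midpoint of the starts along the plus strand) and of 17889 single starts (purple, by distance from the start, positive into the gene) with a peak at each distance in bp; lines are means of 7 libraries and bands run from the lowest to the highest library. At the centre 93.4% of pairs and 51.5% of single starts have a peak, and the purple curve has 23.9% at 500 bp upstream and 47.9% at 500 bp downstream. The green curve has no direction of transcription, so its evenness to left and right is fixed by the way it is drawn.

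How often one region held both starts varied with the distance between them. At 0 to 100 bp, 348 of 363 pairs (95.9%) lay in one region, over 100 and up to 200 bp 146 of 156 (93.6%), up to 300 bp 75 of 78 (96.2%) and up to 500 bp 63 of 66 (95.5%). Beyond 500 bp the share was lower, at 44 of 65 (67.7%), and 15 of the 17 pairs with a region over one TSS alone were of that class. Peaks over both starts were longer at wider spacing, with medians of 1339 bp at 0 to 100 bp and 1740 bp above 500 bp. The length in excess of the distance was 1290 bp in the first bin and 1000 bp in the last, so that the most widely spaced starts lay closer to the edges of their peak. As a peak over both starts cannot be shorter than their distance, part of the rise in length is fixed by the rule.

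**Figure D4:**
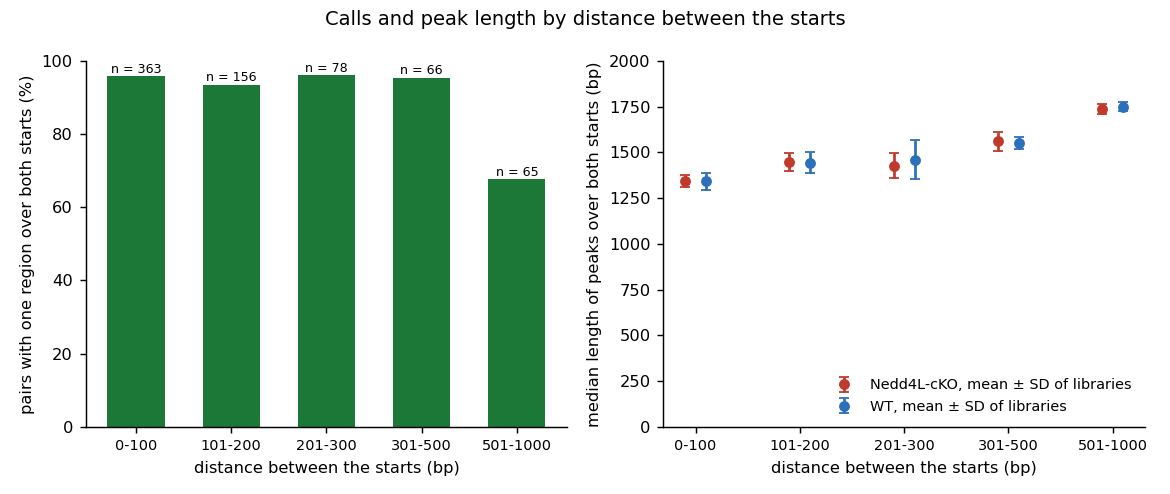
Left, the percent of pairs in which one merged region covers both starts, by distance between the starts in bp (n, pairs in the bin). Right, the median length in bp of peaks that cover both starts, as mean ± SD over 4 Nedd4L-cKO (red) and 3 WT (blue) libraries. The share is lower only in the last bin, above 500 bp, at 67.7%, and the groups overlap in every bin.

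Of 35 head-to-head pairs listed from textbook knowledge, 14 met the rule. All 14 had one peak over both starts in all 7 libraries, beside 657 of all 728 pairs (90.2%), so this count does not set them apart. Their median percentiles were 77.9 to 99.8. Brca1/Nbr1, whose sequence is given above, was near the top in every library: its percentile was 99.7, 99.7, 99.8 and 99.7 in Nedd4L-cKO replicates 1 to 4 and 99.9, 99.8 and 99.7 in WT replicates 1 to 3. The replication helicase gene Mcm4 and the DNA-dependent protein kinase gene Prkdc, 44 bp apart, had 98.7, 98.4, 98.8 and 98.2 in Nedd4L-cKO and 98.6, 99.1 and 98.9 in WT libraries. Atm, the kinase that signals double-strand breaks, and Npat, which activates histone genes, 61 bp apart, had 98.1, 96.8, 94.6 and 93.3 in Nedd4L-cKO and 94.9, 93.8 and 95.9 in WT libraries. In all 3 pairs the ranges of the groups overlapped. The lowest of the 14 was Ndufs3/Kbtbd4, which holds a gene of respiratory complex I, at 73.0, 81.6, 77.9 and 79.9 in Nedd4L-cKO and 81.5, 77.3 and 75.6 in WT libraries. Sdhd/Timm8b stood at a median of 89.1, Clcn2/Polr2h at 98.3, Psmb9/Tap1 at 97.6 and Ankrd49/Mre11a at 92.8. The others were Mrps12/Sars2, Tsc2/Nthl1, Toe1/Mutyh, Pdcd10/Serpini1, Recql/Golt1b and Cdk5/Slc4a2. Of the 21 listed pairs outside the rule, 11 overlap at their outermost annotated starts, such as the chaperonin genes Hspd1 and Hspe1 and the basement membrane collagen genes Col4a1 and Col4a2, and 10 met neither condition in this annotation.

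The share of genes in pairs differed between lists of genes by role. The lists were drawn up from gene symbols and symbol prefixes, so some members have other roles, such as the kinase gene Rps6kb1 under ribosomes and translation. Of 158 genes listed for DNA repair and replication, 46 (29.1%) belonged to a pair, beside 7.15% of all genes. One peak covered the pair in all 7 libraries for 1305 of the 1447 paired genes, and 47.5% of all single starts were under a peak in all 7. For 44 of the 46 repair and replication genes one peak covered the pair in all 7 libraries, and 81 of 96 single genes of the list (84.4%) were called in all. Among the paired ones Brca1 (99.7) and Parp3 (99.7, paired with Rrp9) were highest and Fancd2, a gene of the Fanconi anaemia repair pathway (70.7, paired with Emc3 at 2 bp), lowest. The exceptions were Rad51c, a recombination gene with one peak over Rad51c/Tex14 in 3 libraries, and Aptx, whose start and that of Dnaja1 are 801 bp apart. Genes of mitochondrial translation, respiration and import were in pairs in 58 of 209 cases (27.8%), and one peak covered all 58 in all 7 libraries, beside 108 of 130 single genes of the list (83.1%) called in all. Among the paired ones Mrpl41 (98.8) and Mrps18b (98.1) were highest, and Mrps18c (74.4) and Mrpl13 (74.6), likewise genes of the mitochondrial ribosome, lowest. Genes listed for RNA processing, a list that also holds RNA polymerase subunits such as Polr2b and Polr2h, were in pairs in 45 of 200 cases (22.5%). One peak again covered the pair in all 7 libraries for all 45, beside 124 of 140 single genes of the list (88.6%) called in all. The helicase gene Ddx54 (99.9) and Hnrnpul2 (99.9) were highest and Ddx25 (62.1), another helicase gene, and Lsm7 (75.8) lowest.

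The replication-dependent histone genes had the highest share in pairs among these lists, 25 of 70 genes (35.7%), and most of their pairs joined an H2A and an H2B gene. Of these 25, 20 were under one peak in all 7 libraries at a median percentile of 95.8, from 90.02 at H2bc13/H2ac13 to 98.6 at H2ac22/H2bc22, and 33 of 43 single histone genes (76.7%) were called in all. The other 5 belong to H2bc23/H2ac23, H2ac24/H4bc24 and H2bc1/H2ac1, which had no region in any library. Many replication-dependent histone genes have near-identical copies, and reads that match several copies equally would fail the authors' mapping quality filter. Whether this bears on the missing calls at these pairs was not tested, so those calls are uncertain.

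Genes of ribosomes and translation were in pairs in 24 of 164 cases (14.6%), 23 of them called in all 7 libraries, beside 107 of 131 single ones (81.7%). Of the paired ones, Rpl37 (99.3) and Eif2b4 (98.9) were highest and Eif2b1 (78.00) and Rpl4 (83.7) lowest. Ubiquitin and proteasome genes were in pairs in 37 of 333 cases (11.1%), 34 of them called in all, beside 198 of 279 single ones (71.0%), with the deubiquitinase gene Usp5 (99.96) and the cullin gene Cul4a (99.7) highest and Fbxl13 (75.1) lowest. Cell cycle genes were in pairs in 7 of 79 cases (8.86%), 6 of them called in all, beside 57 of 66 single ones (86.4%), with Cdca3 highest and Cdca5 (76.3) lowest. None of 34 textbook muscle genes and none of 4 collagen IV genes met the rule, and 25 of the 34 muscle genes (73.5%) had a single TSS under a peak in all 7 libraries, beside 47.5% of all single starts. No test was run on these lists, whose members share pairs with each other.

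The strongest pairs were Usp5/Cdca3, 46 bp apart, Rita1/Ddx54 and Mob3a/Izumo4. Usp5/Cdca3 had percentiles of 99.80 to 99.98 over the 7 libraries, which puts it among the highest peaks of each of them. The weakest pairs called in all libraries were Lrrc63/Lcp1, Elapor1/1700013F07Rik and Ifit1bl2/Ifit1. Lcp1 encodes a plastin of blood cells and Ifit1 an interferon-induced protein. Lrrc63/Lcp1 stood at 30.2, 22.6, 38.3 and 37.6 in Nedd4L-cKO and 51.5, 31.4 and 30.1 in WT libraries, with overlap of the groups. The longest peaks were over Mrps18b/Ppp1r10, Peg3/Usp29 and Nek8/Tlcd1. Peg3 is an imprinted gene, and the peak over Peg3/Usp29, 97 bp apart, was 3174 to 3276 bp long in all 7 libraries. At Mrps18b/Ppp1r10 it was 1959 and 1961 bp in Nedd4L-cKO replicates 1 and 2 but 3382 to 3477 bp in the other 5 libraries. The shortest were over Cenpj/Parp4, Dand5/Gadd45gip1 and Hemk1/6430571L13Rik, with Cenpj/Parp4 at 527, 749, 533 and 800 bp in Nedd4L-cKO and 535, 807 and 543 bp in WT libraries.

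Pairs without a region in any library numbered 35, and 27 of them had starts within 300 bp. The 3 closest were Gm26650/Gm10410, a pair of predicted genes 10 bp apart for which the 2 annotations used for strand did not give the same strand, Best1/Rab3il1 at 36 bp and Angel1/Lrrc74a at 42 bp. Some of these pairs hold genes known for expression in other tissues, such as Plcz1/Capza3 (sperm) and Kirrel2/Nphs1 (kidney), and others hold broadly used genes, such as Ctnnd1, Setd1b and Ash2l. They were not counted by tissue. At 12 of the 35 a further listed start of one of the genes lay in a region called in all 7 libraries, for example at Rnf151/Rps2, which holds the ribosomal protein gene Rps2, and at Best1/Rab3il1, the pair whose sequence is shown, with 2 such starts of its 4 further listed ones.

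Between the genotypes, calls, length, pileup percentile and reach at head-to-head promoters differed by less than the spread of the libraries. The share of pairs under one peak differed by -0.10 percentage points (Nedd4L-cKO minus WT, p = 0.886, exact permutation test over all 35 assignments of the labels, two-sided, for which the smallest p is 0.0286). Peaks over pairs had a median length of 1414 bp ± 47.4 in the Nedd4L-cKO group (SD, n = 4), against 1401 bp ± 58.6 in the WT group (SD, n = 3) (p = 0.714, same exact permutation test). The longest median, 1481 bp, was that of Nedd4L-cKO replicate 4 and the shortest, 1334 bp, that of WT replicate 3, which are the libraries with the most and the fewest tags, and the part of depth in length was not tested. Their median percentile was 92.7 ± 0.343 (SD, n = 4) against 92.7 ± 0.282 (SD, n = 3), which is -0.02 apart (p = 0.943, same exact permutation test). Ranked by fold enrichment in place of pileup, the median percentile was 86.4, 86.8, 86.6 and 85.2 in Nedd4L-cKO and 84.0, 84.2 and 86.0 in WT libraries. That difference, 1.52, was larger than the SD of 1.15 over the 7 libraries, and the ranges overlapped (p = 0.0857, same exact permutation test). The gaps between paired and single starts were alike too, at 41.6 and 41.7 points for calls (p = 0.943), 108 and 108 bp for length (p = 0.971), 7.27 and 7.27 points for percentile (p = 1) and -169 and -165 bp for reach (p = 0.514), each by the same exact permutation test. Adjusted over the 11 tests, each of these 7 p-values was 1. A p this high does not show that the genotypes are equal, but each of these 7 differences was smaller than 1 SD of the libraries.

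As 666 of the 667 regions were called in every library, calls could hardly separate the genotypes at head-to-head promoters. Of the 667 regions, 0 were called in all Nedd4L-cKO and no WT library, and 0 in all WT and no Nedd4L-cKO library. Among all 93201 regions these were 65 (0.0697%) and 76 (0.0815%). In the 52187 regions called in all 7 libraries, limma on the normal scores of the pileup ranks called 0 of 666 regions over pairs at an adjusted p under 0.05, and 0% of all regions (Benjamini-Hochberg). At an unadjusted p under 0.05 there were 5 of 666 regions over pairs (0.751%), 3 higher and 2 lower in Nedd4L-cKO, beside 1.20% of regions over single starts and 2.69% of all regions. For the length covered, limma called 0 of 666 as well, beside 0% of all regions. At an unadjusted p under 0.05 there were 9 of 666 (1.35%), beside 2.24% of regions over single starts and 3.98% of all.

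The regions of lowest unadjusted p are given as values, none of which passed the adjustment (limma, adjusted p of 1.00 when rounded for each). For pileup these were Crat/Ptpa and Chtf18/Rpusd1 on the higher side and Fbxl6/Slc52a2 and Glyr1/Ubn1 on the lower. At Crat/Ptpa, which pairs carnitine acetyltransferase with an activator of the phosphatase PP2A, the percentiles were 99.3, 99.5, 99.1 and 99.0 in Nedd4L-cKO and 98.8, 98.3 and 97.4 in WT libraries. The groups did not overlap, although the lowest of the 7 values was 97.4. At Fbxl6/Slc52a2, an F-box gene and a riboflavin transporter gene, Nedd4L-cKO libraries had a percentile of 91.1 ± 1.15 (SD, n = 4) where the WT group had 94.2 ± 0.443 (SD, n = 3). For length they were Per3/Gm38529 and Glyr1/Ubn1 on the longer side and H2ac15/H2bc15 and Rbmxl1/Slc10a7 on the shorter. The peak over the histone pair H2ac15/H2bc15 was 1201, 1190, 1241 and 1223 bp long in Nedd4L-cKO and 1600, 1534 and 1489 bp in WT libraries, without overlap, while its percentile, 92.9 ± 3.55 (SD, n = 4) against 94.0 ± 1.94 (SD, n = 3), did overlap. The peak over the circadian clock gene Per3 and Gm38529 was 1366, 1815, 1514 and 1517 bp in Nedd4L-cKO and 1202, 1167 and 1118 bp in WT libraries. These were picked as the most extreme of 666 regions, so a lack of overlap in them is part of the choice.

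**Figure D5:**
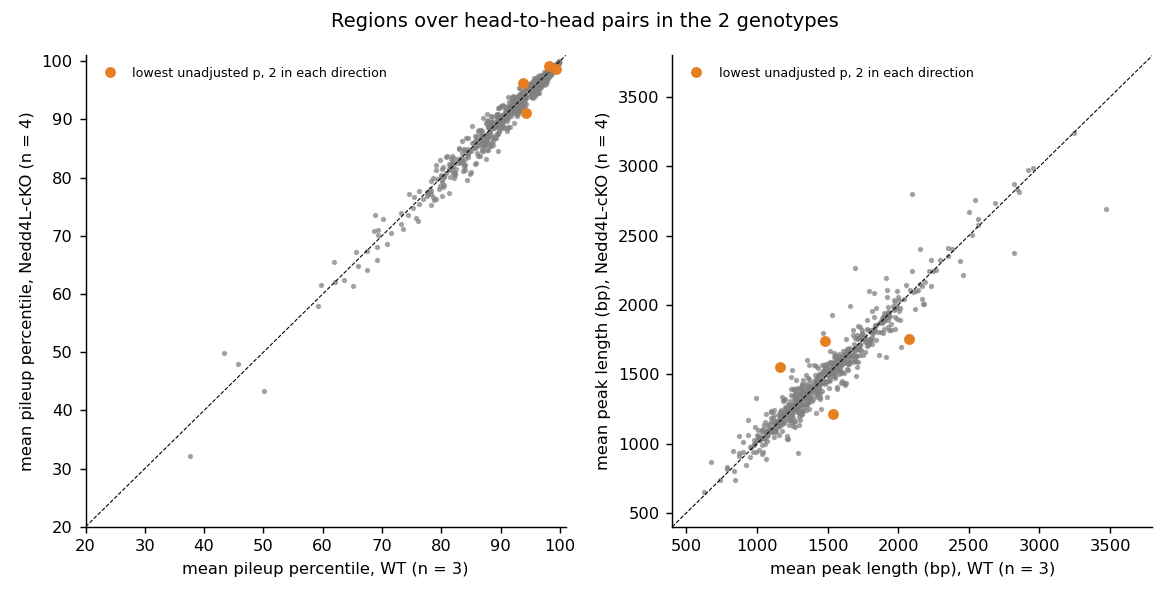
Each grey point is one of 648 regions in which one peak spans both starts of a pair in all 7 libraries, by its mean over 3 WT libraries (horizontal) and over 4 Nedd4L-cKO libraries (vertical), as pileup percentile on the left and as peak length in bp on the right; the dashed line marks equal values. Orange points have the lowest unadjusted limma p. The points lie along the line, with a median difference of 0.610 percentile points in either direction and a largest one of 6.64.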

How the data were processed

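ATAC-seq reads of 4 Nedd4L-cKO and 3 WT libraries were trimmed with Trimmomatic 0.39 and aligned to mm10 with BWA 0.7.17, and duplicates were removed with Picard 2.26.3, per the submitters' processing notes and the study's methods. The authors called broad peaks on each library alone with MACS2 2.2.7.1. In the deposited lists the pileup is a signal (mean coverage over the peak) that was left unscaled by library size. The fold enrichment the authors deposited divides it by the local background, giving a ratio. The p-values and q-values were deposited as -log10, and the deposited score is derived from the q-value. Tag totals are per the file headers.

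From these lists, autosomal peaks that shared at least 1 bp were merged over all libraries into regions. A TSS was the outer end of a RefSeq protein-coding gene on GRCm38. Strands of 20232 of 20665 genes (97.9%) came from the RefSeq promoter table or, for 3775 of them, from GENCODE by symbol and chromosome, and 101 genes had a different strand in the other source. Pairs had starts 0 to 1000 bp apart on opposite strands, diverging. Values per library were compared by exact permutation tests over 35 assignments of the labels, or over 128 sign flips for paired against single starts, and regions with limma 3.58.1 in R 4.3.3. Benjamini-Hochberg adjustment was used. No 2 libraries shared an identical peak, so none was a copy of another. Each counted as 1 replicate because the study counts each as 1 mouse. Scripts ran in Python 3.11.15 and were tested on simulated data.

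Members, gene lists and tests were chosen with earlier results of these data known. Named pairs were those of a textbook list, the 3 extremes of percentile and of length at either end, the 2 lowest unadjusted limma p-values in each direction, the 3 closest pairs without a region, regions that separate the genotypes (none), pairs with starts in different regions (none), and the extremes within each gene list. Further pairs without a region, the region missing from some libraries and the exceptions within lists were named after their values were seen. Chromosome 18 has no promoter sequences in the table used here.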

Additional observations from a re-analysis of the deposited data

How the results depend on the processing

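The 4 gaps between paired and single starts kept their direction and a p under 0.05 in all 61 alternatives run on them. Leaving out each library in turn gave 41.6 to 41.8 points for calls, 105 to 110 bp for length, 7.16 to 7.36 points for percentile and -169 to -166 bp for reach (p = 0.0312, exact permutation test over sign flips). Their size varied more with other settings. Among CpG-rich starts the call gap was 5.37 points, the percentile gap 4.79 and the length gap 78.0 bp. At a -log10 q of at least 5 the percentile gap was 11.5 points, with percentiles taken anew among the kept peaks, and the length gap 87.8 bp. With starts at most 300 bp apart the length gap was 74.9 bp, and with starts of the promoter table the reach gap was -137 bp. The percentile gap was 7.32 points with ranks by fold enrichment.

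The 7 differences between the genotypes (Nedd4L-cKO minus WT) were tested in 55 alternatives over all 35 assignments of the labels, with a lowest p of 0.0857, and in 56 that leave out a library or use the block and cannot reach 0.05, so that their p-values say nothing about stability (exact permutation tests). Several of the values changed sign. Leaving out each library in turn gave -0.52 to 0.17 points for the share under one peak, -20.8 to 33.0 bp for length, -0.15 to 0.14 for the percentile, -0.21 to 0.26 points for the call gap, -7.50 to 5.25 bp for the length gap, -0.22 to 0.17 for the percentile gap and -10.1 to -0.63 bp for the reach gap. Without WT replicate 3, which leaves lane 1 alone, the length difference was -20.8 bp, and without Nedd4L-cKO replicate 4 it was -9.50 bp. At a -log10 q of at least 5 the share was 0.0801, the call gap 0.421 and the length gap -3.00. With peak lists cut to equal size the call gap was 0.0475, the length gap -0.17 and the percentile gap -0.0022. In broad peaks that hold a narrow one the call gap was 0.18 and the length gap -0.38. With starts at most 300 bp apart the share was 0.0698, the call gap 0.122, the length gap -1.13 and the percentile gap -0.0655. Without predicted genes the length gap was -2.21 and the percentile gap -0.0358, and with single starts 5000 bp from any other the percentile gap was -0.0488. Ranked by fold enrichment the percentile was 1.52 higher in Nedd4L-cKO. With starts of the promoter table, chosen after seeing the data, the share was 0.194, the call gap 0.182 and the percentile gap -0.0716, and with its CpG-rich starts, also chosen after seeing the data, 0.0151, 0.190 and -0.0553. The cause of these changes of sign was not tested.

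The labels do not say whether replicate numbers 1 to 3 pair the libraries. Same-numbered libraries had correlations of -0.22, 0.10 and -0.24 in their deviations from the group means. These values cannot decide it, as differently numbered libraries were not compared. With the replicate block the length difference was -9.50 bp, the call gap 0.26 and the length gap -5.83, the smallest p this allows is 0.25, and limma with the block called 0 regions over pairs. In the 24 limma alternatives 0 regions over pairs were called, with 3 to 9 (pileup) and 5 to 18 (length) at an unadjusted p under 0.05. For length at a -log10 q of at least 5, 3 regions of the whole table passed the adjustment. Regions over pairs called in all libraries of one genotype and none of the other numbered 0 in each alternative. Peak lists hold no counts for absent peaks, so a missing peak may be one below the calling threshold at 14.4 to 20.1 M tags.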

Other observations

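Gene pairs whose outermost annotated starts overlap, so that the 2 genes share their first bases, were outside the rule. There were 410 such pairs on the autosomes, with a median overlap of 258 bp, among them Hspd1/Hspe1 and Paics/Ppat. In 83.9% to 88.0% of them a single peak covered both starts, depending on the library, and in 336 pairs (81.95%) it did so in all 7 libraries, beside 90.2% of the head-to-head pairs. No test was run on this difference, and the genotypes were not compared in them.

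The region of Rad51c/Tex14 was called in all 7 libraries, but one peak reached both starts, 59 bp apart, in 3 libraries.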
